A study of Homo sapiens with 18 samples.

Results

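Replication-dependent histone genes were examined in A2780 and Acis cells. The genes were chosen by name from the count table, as H1-1 to H1-6 and every gene whose symbol begins with H2AC, H2BC, H3C or H4C and a number, without the pseudogenes. This gave 53 of the 23622 genes listed, with 6 for the linker histone H1, 12 for H2A, 16 for H2B, 10 for H3 and 9 for H4. A2780 is a cisplatin-sensitive ovarian carcinoma line, and Acis is its resistant derivative, which was given 1 µM cisplatin every 3 passages. Cells of each line were either left untreated (A2780 control and Acis control) or incubated with 200 µM cisplatin for 3 h (A2780 cisplatin and Acis cisplatin). Cisplatin forms adducts with DNA. Each of these 4 groups had 3 RNA-seq libraries from separate wells, and 1 list of ATAC-seq peaks was analyzed for each group. Each line is 1 cell line, so no group holds several donors or clones, and the p-values measure the spread between these libraries.

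Histone proteins package newly copied DNA into nucleosomes, with H2A, H2B, H3 and H4 forming the core and H1 binding the linker DNA. Most of the genes lie in clusters as many near-identical copies and are transcribed mainly in S phase. Their short transcripts usually have no introns and no poly(A) tail and end instead in a conserved stem-loop, which is bound by SLBP. When DNA synthesis is blocked, histone mRNA is known to be degraded through this stem-loop.

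Total counts ranged from 4130644 to 5072216 per library, and the 12 libraries were tested together on 15760 genes that passed a filter on low counts, 50 of the 53 histone genes among them. The other 3 were H1-1, H2AC17 and H3C3, which had 29, 11 and 21 counts over all 12 libraries. Of 8 markers of ovarian carcinoma and epithelium looked for, only KRT8 and KRT18 passed the filter, and they went opposite ways between the lines. KRT8 was at a normalized count of 15.6 ± 4.29 in A2780 control and 4.05 ± 2.47 in Acis control (SD, n = 3). KRT18 was at 25.5 ± 6.90 in A2780 control and 143 ± 9.68 in Acis control (SD, n = 3). The fibroblast marker COL1A1 was at 844 ± 57.2 in A2780 control and 16.4 ± 7.12 in Acis control (SD, n = 3). RNA was measured from whole cultures, where fewer cells in S phase and less histone RNA per cell cannot be told apart. Normalized counts were put on the scale of an average library with TMM factors. The study removed PCR duplicates from single-end reads of 75 bases, so that reads sharing a start position were counted once, and counts of a short, abundant transcript are compressed.

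The genes lie in 3 groups, 28 at chr6:26017032-26285638, 20 at chr6:27125897-27893891 and 5 at chr1:149782689-149887965 (GRCh38), and each canonical transcript has 1 exon. After cisplatin, 18 of 26 genes tested in the first group, 12 of 19 in the second and 3 of 5 on chromosome 1 were lower in A2780 by edgeR at an adjusted p under 0.05, as were 28.2% of all genes. In Acis 21, 15 and 4 were lower, as were 12.4% of all genes.

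The stem-loops are shown because they mark these transcripts. Each lies within 300 bases after the stop codon, read from GRCh38 on the strand of the gene. The 4 loop bases are in capitals, and the 2 forms held by most genes, the commonest H4 form and the form of H2AC15 are given. The sequences shown were read at chr6:26234217-26234232 for H1-3, chr6:27132321-27132336 for H2BC11, chr6:26285131-26285146 for H4C8 and chr6:27837885-27837900 for H2AC15, all on the minus strand.
30 genes of H1, H2A, H2B and H3, such as H1-3: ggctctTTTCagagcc
9 genes, such as H2BC11 and H3C8: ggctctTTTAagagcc
7 genes of H4, such as H4C8: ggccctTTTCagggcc
H2AC15: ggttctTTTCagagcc
A first pattern of this stem-loop, which let 2 bases on each side of the stem vary and fixed the loop as TTTC, matched 39 of the 53 genes (73.6%) and 4 of 14070 other protein-coding genes (0.0284%). The pattern was then widened, after the unmatched genes had been read, so that the second and the last loop base could be any. That all 53 match the wider pattern therefore follows from how it was made. It matched 8 of the other genes (0.0569%), among them H2AX, H2AW, H2BU1, H3-4 and H4-16. The last loop base was C in 40 genes, A in 10 and T in 3.

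Promoters, from 250 bases before to 50 bases after the start in RefSeq (GRCh38.p14), were held for 48 of the 53 genes. In these windows 4 motifs were searched on both strands. CCAAT was in 42 of 48 (87.5%, against 35.7% of all 27305 promoters) and TATAAA in 33 (68.8%, against 12% of all). CCAAT was in 1 of 7 H4 promoters (14.3%) and in every promoter of the other families. The octamer ATTTGCAT, the site of POU2F1, was in 9 of 11 H2A and 13 of 16 H2B promoters, in none of the others, and in 1.8% of all promoters. The H1 box AAACACA was in all 6 H1 promoters, in 1 of 11 H2A promoters and in 5.76% of all promoters. The promoter of H1-3 and those of 3 H2A and H2B pairs that start head to head are printed, since these genes are named in the results below. Whether the motifs bear on the changes in counts was not tested. They lie at chr6:26234938-26235237, chr6:27132746-27133045, chr6:27838326-27838625 and chr1:149886633-149886932 in that order, all on the minus strand, with the motifs in capitals on either strand.
H1-3: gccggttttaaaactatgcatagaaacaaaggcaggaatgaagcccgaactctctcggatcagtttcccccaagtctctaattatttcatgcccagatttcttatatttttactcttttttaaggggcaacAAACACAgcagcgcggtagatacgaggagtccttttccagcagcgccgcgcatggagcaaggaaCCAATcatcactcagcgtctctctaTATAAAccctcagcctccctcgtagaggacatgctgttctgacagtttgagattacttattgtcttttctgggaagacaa
H2BC11: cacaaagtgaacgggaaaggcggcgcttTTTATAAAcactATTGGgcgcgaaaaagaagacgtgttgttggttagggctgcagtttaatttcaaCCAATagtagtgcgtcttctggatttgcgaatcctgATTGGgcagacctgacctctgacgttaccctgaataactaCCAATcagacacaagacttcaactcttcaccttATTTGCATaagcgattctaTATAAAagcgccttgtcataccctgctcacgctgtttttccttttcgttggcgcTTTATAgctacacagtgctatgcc
H2AC15: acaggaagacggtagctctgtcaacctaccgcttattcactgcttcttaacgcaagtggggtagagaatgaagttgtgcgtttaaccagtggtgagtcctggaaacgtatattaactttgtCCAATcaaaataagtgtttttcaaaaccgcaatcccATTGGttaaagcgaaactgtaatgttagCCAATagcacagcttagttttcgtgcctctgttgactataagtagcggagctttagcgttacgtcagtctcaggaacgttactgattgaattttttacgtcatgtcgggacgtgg
H2BC21: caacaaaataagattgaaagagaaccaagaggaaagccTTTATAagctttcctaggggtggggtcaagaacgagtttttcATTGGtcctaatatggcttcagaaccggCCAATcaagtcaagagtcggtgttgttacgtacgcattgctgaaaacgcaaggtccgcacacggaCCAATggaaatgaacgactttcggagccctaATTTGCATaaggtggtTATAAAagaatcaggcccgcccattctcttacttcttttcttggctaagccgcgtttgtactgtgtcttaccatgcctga
The H2BC11 window also covers the start of H2AC11, the H2AC15 window that of H2BC15, and the H2BC21 window that of H2AC20. The H2AC15 window holds CCAAT but neither TATAAA nor the octamer.

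In A2780 cells, histone transcripts were mostly lower after 3 h of cisplatin. The summed normalized count of all 53 genes was 9433, 9558 and 9491 in the A2780 control libraries and 7014, 7644 and 7361 in the A2780 cisplatin libraries, and the groups did not overlap. The sum after cisplatin was 77.3% of control. It was 66.4% for H1, 77.5% for H2A, 83.4% for H2B, 71.7% for H3 and 83.4% for H4. By edgeR's quasi-likelihood test at an adjusted p under 0.05, 33 of the 50 genes tested were lower, where 28.2% of all genes tested were lower. H2BC21 was the 1 gene that was higher, against 21.2% of all genes. The median log2 fold change was -0.36, and over all genes -0.01. When a change of 2-fold or more was also required, 5 genes were lower (1.48% of all genes) and 0 higher (4.14%). The 5 were H1-3, H2AC15, H2AC16, H2BC3 and H4C9. H2BC3 passed the filter on low counts only through A2780 control, so its place among them is a description with no test. The treated libraries lay below all controls in 36 genes (31.1% of all genes) and above them in 3 (26.2%). With total counts as library size, H2AC11 and H4C8 also passed as higher.

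In Acis cells the sum was 9805, 9871 and 10100 in control and 6917, 6683 and 6535 after cisplatin, again without overlap. The sum after cisplatin was 67.6% of control, with 65.3% for H1, 68.4% for H2A, 68.3% for H2B, 60.6% for H3 and 75.8% for H4. By the same test 40 of the 50 genes were lower (12.4% of all genes) and 0 higher (9.35%). The median log2 fold change was -0.53, and over all genes 0.01. The fall was 2-fold or more in 7 genes (0.374% of all genes) and the rise in 0 (1.64%). The 7 were H1-3, H2AC15, H2AC16, H3C1, H3C8, H3C11 and H4C9. The treated libraries lay below all controls in 43 genes (17.4% of all genes) and above them in 0 (16.9%). In both lines together, 30 genes were lower in each. The share of all genes lower in both lines is not given here. H2AC21 passed the test in A2780 and not in Acis, and 10 genes in Acis and not in A2780. H2BC3 and H3C12 were counted as lower in A2780, H2BC3 as a description only. Neither could be judged in Acis, where each had 3 to 6 counts per group. Another 7 passed in neither line (H1-6, H2AC14, H3C6, H4C1, H4C3, H4C11 and H4C12). In each cisplatin library the median histone gene was below its control mean, at -0.45, -0.29 and -0.32 on the log2 scale in A2780 and at -0.49, -0.54 and -0.56 in Acis.

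**Figure D1:**
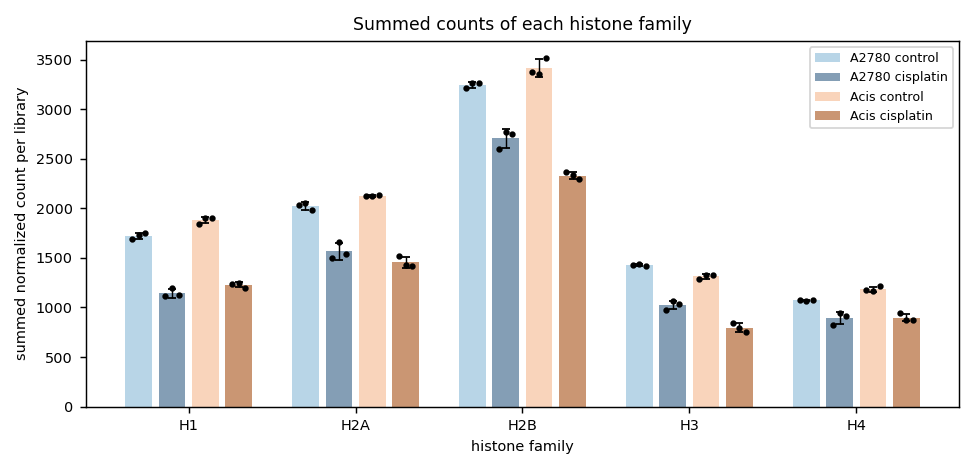
Summed normalized count (y axis) of the H1, H2A, H2B, H3 and H4 genes (x axis), with bars at the mean of 3 libraries, error bars of 1 SD and a point per library. In every family and both lines the cisplatin libraries lie below the control libraries of the same line, and H2B in A2780 goes from 3247 to 2707.

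**Figure D2:**
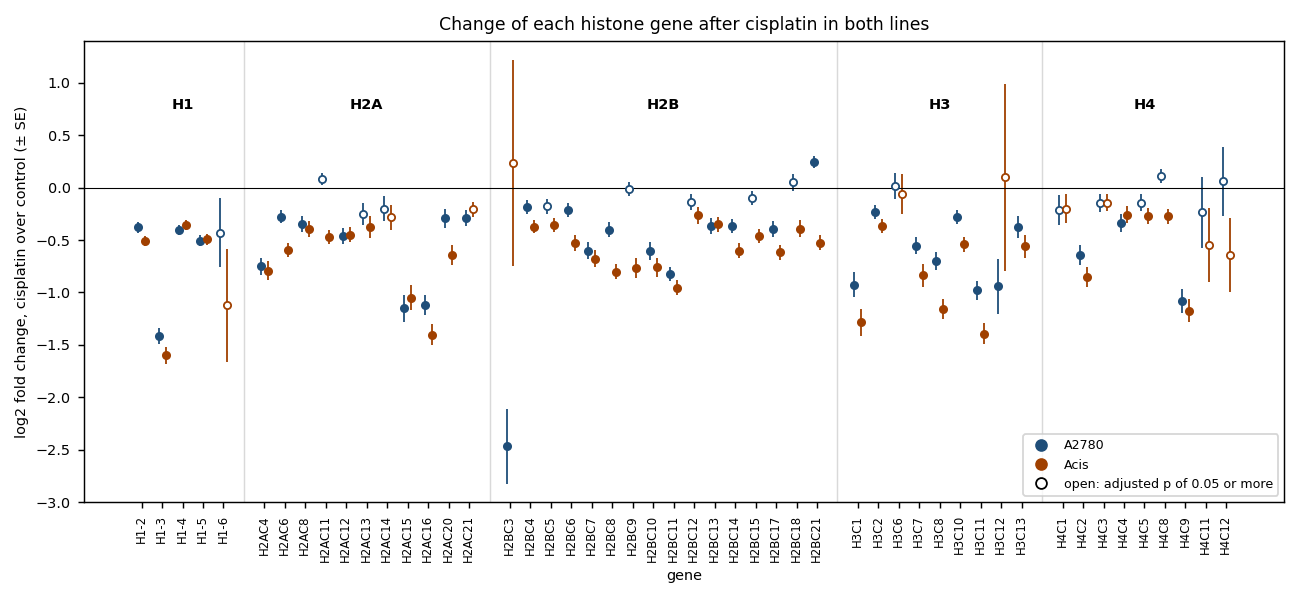
Log2 fold change of cisplatin over control with its standard error (y axis) for each of the 50 genes tested (x axis), in A2780 and Acis. Filled points passed an adjusted p under 0.05, and most points lie below 0, with H2BC21 the 1 filled point above it.

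Histone transcripts are short, so other short genes are given beside them. Among 630 other protein-coding genes whose canonical transcript has at most 1000 bases, 329 were higher (52.2%) and 12 lower (1.9%) in A2780, with a median log2 fold change of 0.22. In Acis 39 were higher (6.19%) and 9 lower (1.43%), with a median of 0.06. The median of the histone genes minus that of the short genes was -0.58 in A2780 and -0.58 in Acis, in log2 units. Among the 25 of them with 1 exon, 7 were higher and 1 lower in A2780, and 2 higher and 3 lower in Acis.

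The linker histone genes H1-2, H1-3, H1-4 and H1-5 were lower in both lines. H1-3 had normalized counts of 357, 388 and 393 in A2780 control and 126, 161 and 141 after cisplatin. In Acis it had 363, 360 and 375 in control and 132, 119 and 111 after cisplatin. The groups were far apart in both lines, and the log2 fold changes were -1.41 ± 0.075 in A2780 (SE, edgeR adjusted p = 2.8e-14) and -1.60 ± 0.080 in Acis (edgeR adjusted p = 1.38e-13). H1-2, H1-4 and H1-5 are the other H1 genes with high counts, and they had smaller log2 fold changes, of -0.38, -0.40 and -0.51 in A2780 and -0.51, -0.36 and -0.49 in Acis. H1-6, a linker histone known from the testis, had normalized counts of 3.42 to 14.4 in the control libraries of either line and did not pass the test, with log2 fold changes of -0.43 and -1.12. H1-1 had 9 counts before and 16 after cisplatin in A2780, and 4 before and 0 after it in Acis, too few for a test.

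For H2A, 8 of 11 genes tested were lower in A2780 (28.2% of all genes) and 9 in Acis (12.4%). In either line 0 were higher (21.2% of all genes in A2780 and 9.35% in Acis). H2AC16 had 145, 147 and 140 in A2780 control and 64.7, 67.8 and 65.8 after cisplatin. In Acis it had 140, 144 and 131 in control and 50.9, 55.1 and 51.1 after cisplatin. Its log2 fold changes were -1.12 ± 0.094 (edgeR adjusted p = 1.68e-10) and -1.40 ± 0.10 (edgeR adjusted p = 1.14e-10). H2AC15 fell by 1.15 in A2780 and by 1.05 in Acis on the log2 scale. The 3 H2A genes with the highest counts were H2AC11, H2AC8 and H2AC6. H2AC11 had 290, 285 and 281 in A2780 control and 298, 310 and 300 after cisplatin, while in Acis it had 290, 279 and 270 in control and 213, 203 and 190 after cisplatin. The A2780 log2 fold change of H2AC11 was 0.08 ± 0.058 (edgeR adjusted p = 0.309), and it fell in Acis by 0.47 ± 0.066 (edgeR adjusted p = 4.71e-06). H2AC8 and H2AC6 fell in both lines, by 0.35 and 0.28 in A2780 and by 0.39 and 0.59 in Acis on the log2 scale. With total counts as library size, H2AC6 lost its A2780 call (adjusted p = 0.0641). H2AC17 had 11 counts in all.

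For H2B, 10 of 16 genes were lower (28.2% of all genes) and 1 higher (21.2%) in A2780, and 15 were lower in Acis (12.4%). H2BC21 had 238, 260 and 247 in A2780 control and 294, 299 and 289 after cisplatin, so every treated library was above every control. In Acis it had 253, 246 and 266 in control and 176, 181 and 174 after cisplatin, all below the controls. Its log2 fold changes were 0.24 ± 0.059 in A2780 (edgeR adjusted p = 0.00178) and -0.52 ± 0.069 in Acis (edgeR adjusted p = 1.81e-06). The canonical transcript of H2BC21 has 2224 bases, where those of the other 52 genes have 387 to 797. Other genes also have long exons in other annotated transcripts, with 4265 exon bases in all for H2BC15 and 2881 for H2BC4. H2BC14 and H2BC15 were the other H2B genes with the highest counts. H2BC14 fell by 0.37 in A2780 and by 0.60 in Acis, and for H2BC15 the A2780 value was -0.10 (edgeR adjusted p = 0.272) and fell by 0.46 in Acis. H2BC3 had 22.4, 23.1 and 25.6 in A2780 control and 0.94, 5.81 and 5.89 after cisplatin, a log2 fold change of -2.47. It passed the filter on low counts only through A2780 control, so this value is a description with no test. In the 6 Acis libraries H2BC3 had 0 to 2 counts.

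For H3, 8 of 9 genes tested were lower in A2780 (28.2% of all genes) and 7 in Acis (12.4%). H3C11 had 180, 178 and 177 in A2780 control and 89.1, 85.2 and 97.3 after cisplatin, and 181, 180 and 172 in Acis control and 78.7, 66.0 and 58.0 after cisplatin. The control libraries of both lines lay close together and the treated ones far below, at log2 fold changes of -0.98 ± 0.091 in A2780 (edgeR adjusted p = 1.09e-09) and -1.39 ± 0.10 in Acis (edgeR adjusted p = 7.16e-11). H3C1 fell by 0.93 and 1.28, and H3C8 by 0.70 and 1.16, in A2780 and Acis on the log2 scale. H3C2 and H3C10, the H3 genes with the highest counts, fell by 0.23 and 0.28 in A2780 and by 0.37 and 0.54 in Acis. H3C2 lost its A2780 call without A2780 cisplatin replicate 1 (edgeR adjusted p = 0.0517) and with total counts as library size (0.171). H3C6 had log2 fold changes of 0.01 and -0.06 and passed no test of cisplatin. H3C3 had 18 counts before and 2 after cisplatin in A2780, and 1 before and 0 after it in Acis. The ratio of 18 to 2 counts, scaled for library size, was 9.2 (95% exact interval 2.2 to 81.8, counting error only).

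For H4, 3 of 9 genes were lower in A2780, a share near the 28.2% of all genes, and 5 in Acis (12.4% of all genes). H4C9 had 118, 105 and 114 in A2780 control and 50.6, 53.3 and 55.01 after cisplatin, and 132, 121 and 128 in Acis control and 65.3, 55.1 and 48.1 after cisplatin. Its log2 fold changes were -1.08 ± 0.12 (edgeR adjusted p = 1.25e-08) and -1.17 ± 0.11 (edgeR adjusted p = 1.21e-08), and the treated and control libraries did not overlap in either line. The 3 H4 genes with the highest counts were H4C5, H4C8 and H4C3, with log2 fold changes of -0.14, 0.11 and -0.15 in A2780, none past the test, and of -0.27, -0.28 and -0.15 in Acis, where H4C5 and H4C8 passed. H4C3 passed in A2780 without A2780 cisplatin replicate 2 (edgeR adjusted p = 0.0463), and H4C5 did not pass in Acis without Acis cisplatin replicate 2 (edgeR adjusted p = 0.0503). DESeq2 called 2 of the 9 in Acis, H4C2 and H4C9, and not H4C4, H4C5 or H4C8 (adjusted p = 0.143, 0.0596 and 0.0622). The share of all genes called by DESeq2 is not given here. H4C11 and H4C12 had normalized counts of 5.63 to 14.7, and only 8.6% and 8.0% of their 75-base windows are unique in the genome, so reads from these near-identical copies may have been split or discarded. The share of unique windows was also low for H2AC14 (35.8%), H3C13 (37.0%), H2AC13 (38.7%), H2BC18 (40.7%), H2BC12 (61.0%) and H2AC20 (82.1%).

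**Figure D3:**
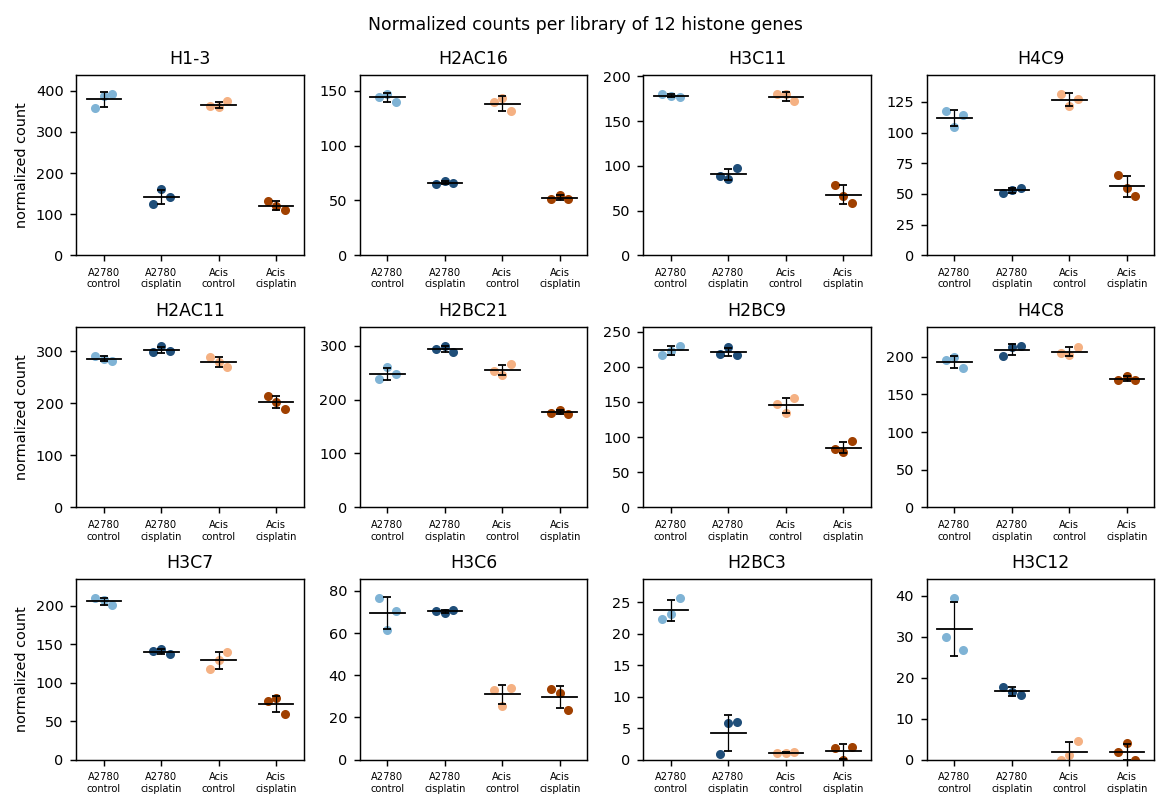
Normalized counts (y axis) of 12 histone genes in the 12 libraries (x axis, 4 groups), with a point per library, a line at the mean and error bars of 1 SD. H1-3, H2AC16, H3C11 and H4C9 are low in both cisplatin groups, H2AC11, H2BC21, H2BC9 and H4C8 are low after cisplatin in Acis and not in A2780, and H2BC3 and H3C12 are near 0 in Acis.

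The cisplatin effect itself was compared between the lines by the interaction term of the same model. It was more negative in Acis for 11 genes (5.48% of all genes) and more positive for 0 (13.4%) at an edgeR adjusted p under 0.05. The 11 were H2AC6, H2AC11, H2BC6, H2BC8, H2BC9, H2BC15, H2BC18, H2BC21, H3C8, H3C11 and H4C8. The largest differences were those of H2BC21, H2BC9 and H2AC11, at -0.77, -0.75 and -0.56 on the log2 scale. H2BC9 had 217, 223 and 230 in A2780 control and 219, 228 and 217 after cisplatin, and 147, 134 and 155 in Acis control and 82.5, 78.8 and 94.3 after cisplatin, so that the treated libraries fell below the controls in Acis and overlapped them in A2780. DESeq2 called 3 of the 11, the same H2AC11, H2BC9 and H2BC21, and 15 genes had an unadjusted edgeR p under 0.05. The share of all genes is not given here for either count, so neither is read as an excess. The median interaction over the 50 genes was -0.18, and over the 630 other short protein-coding genes it was also -0.18, with 91 of these more negative (14.4%) and 5 more positive (0.794%). H2AC6, H2BC6 and H3C11 lost their call without any of 5, 9 and 9 single libraries, and H3C8 without Acis cisplatin replicate 3 (edgeR adjusted p = 0.0667). The part of transcript length in the difference between the lines was not tested. Of the 4451 genes of any kind that were lower in A2780, the fall was smaller in Acis for 1885 and larger for 15. Of the 33 histone genes among them it was smaller for 0 and larger for 5. All these genes were chosen by their fall in A2780, which is also a part of the interaction. That choice itself favors a smaller fall in Acis, so both splits are a description with no test.

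Many H2A and H2B genes lie head to head with little space between their starts, and the ratio of both genes in a library does not depend on how libraries are scaled. Within 1000 bases there are 9 such pairs, and H3C7 with H2BC9 also lies head to head. Of these 10 pairs, 9 could be tested by an exact two-sided permutation of libraries within lines, whose smallest p is 0.005, with Benjamini-Hochberg adjustment over the 9. Each p belongs to the mean of the changes in both lines, and no line was tested alone. These pairs were looked at after their genes' values had been seen. H2AC15 fell relative to H2BC15, whose start is 193 bases away, by 1.04 in A2780 and by 0.59 in Acis on the log2 scale (exact permutation p = 0.005, adjusted p = 0.018). H2BC11 fell relative to H2AC11, 247 bases away, by 0.91 in A2780 and by 0.48 in Acis (exact permutation p = 0.005, adjusted p = 0.018). H2BC21 rose relative to H2AC20, 235 bases away, by 0.55 in A2780 and 0.12 in Acis, with a mean of 0.33 (exact permutation p = 0.015, adjusted p = 0.0225). In a calculation added after seeing the data, from counts corrected for start positions, the last 2 values were 0.63 and 0.21, those of H2AC15 with H2BC15 were -1.11 and -0.57, and those of H2BC11 with H2AC11 were -1.27 and -0.58. The ratio of H2AC14 to H2BC14 changed by 0.17 in A2780 and by 0.31 after this correction. Of the other 6, H2BC13 with H2AC13 and H3C7 with H2BC9 did not pass (exact permutation, adjusted p = 0.405 and 0.0506), and 4 passed with mean changes of -0.23 to 0.25. The promoter regions printed above are those of the 3 pairs named with their changes.

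Between the untreated lines, 11 of the 50 genes were higher in Acis control than in A2780 control (28.2% of all genes) and 6 lower (30.6%) by edgeR's adjusted p. The median log2 fold change was 0.11. The Acis libraries lay above all A2780 libraries in 24 genes (30.9% of all genes) and below them in 7 (33.3%). With the 2-fold threshold 4 were lower (12.2%) and 0 higher (6.99%). H3C12 had 29.9, 39.4 and 26.7 in A2780 control and 0, 1.07 and 4.56 in Acis control, or 98 against 5 counts. H2BC3 had 72 counts in A2780 control and 3 in Acis control, a ratio of 21.7 (95% exact interval 7.14 to 108, counting error only). Both genes are among the 4 lower ones and passed the filter on low counts only through A2780 libraries, so these values are a description with no test. H3C6 had 76.5, 61.5 and 70.5 in A2780 control and 32.9, 25.6 and 34.2 in Acis control, a log2 fold change of -1.17 ± 0.16 (edgeR adjusted p = 2.79e-07). H1-6, also among the 4, had 37 counts in A2780 control and 16 in Acis control, a log2 fold change of -1.05. It too passed the filter only through A2780 libraries, so this value is a description with no test. H2BC9 and H3C7, whose starts lie 978 bases apart, had log2 fold changes of -0.62 and -0.68. The 11 higher genes had log2 fold changes of at most 0.36, the value of H2BC5. After cisplatin, 5 genes were higher in Acis than in A2780 (31.8% of all genes) and 17 lower (31.2%), and the same 2-fold threshold gave 4 lower (11.9%) and 0 higher (7.28%). H1-6 and H3C12 are among these 4, again as a description with no test. The Acis libraries then lay above all A2780 libraries in 7 genes (33.4%) and below them in 20 (33.3%).

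Because reads with one start position were counted once, a transcript of a given length has a ceiling. The median count per base of transcript was 0.341 for the 50 histone genes and 0.0581 for the other tested genes, and it was over 0.2 for 37 of the 50, against 2120 of 15658 others. Replicates of the histone genes differed by 0.224 to 1.21 times the counting noise, and those of all genes by 0.73 to 1.53 times. Their spread was below the counting noise in 11 of 12 pairs of replicates, and their p-values rest on that spread. Correcting each count for the start positions taken, with the canonical transcript length, moved the median log2 fold change to -0.43 in A2780 and -0.64 in Acis. Then 35 and 41 genes were lower, and 9 and 10 lower by 2-fold or more. The shares of all genes in this corrected fit are not given here. Whether the added calls are particular to histone genes was therefore not tested.

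**Figure D4:**
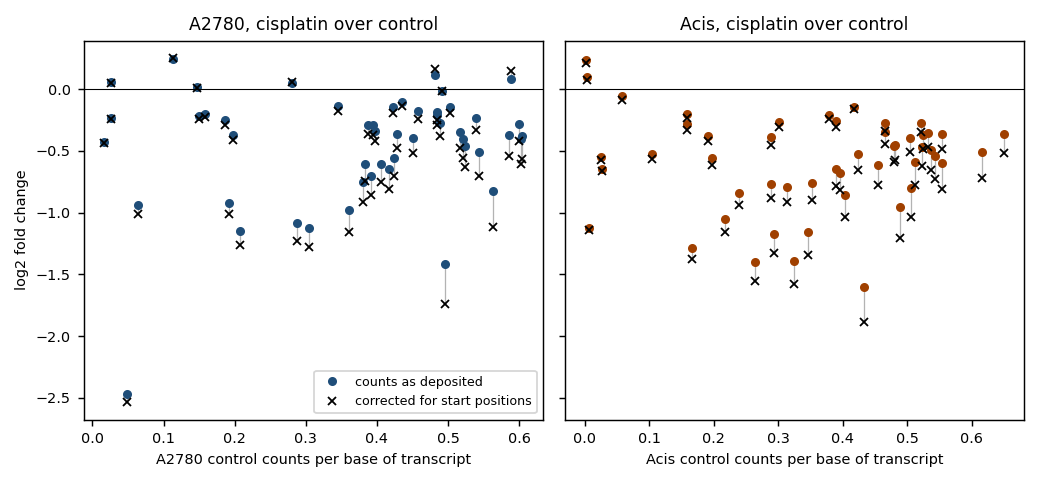
Log2 fold change of cisplatin over control (y axis) against the count per base of transcript in the control group (x axis) for the 50 genes tested, in A2780 and Acis, as deposited and after correction for start positions. Corrected values lie farther from 0 for genes with many counts per base, and the grey lines join both values of a gene.

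ATAC-seq marks open chromatin, and the study listed peaks that overlapped between replicates of a group. A peak overlapped the window from 250 bases before to 50 bases after the start of 45 of the 53 genes before (84.9%) and 46 after cisplatin (86.8%) in A2780, and of 44 before (83.0%) and 45 after it (84.9%) in Acis. Among 14088 other protein-coding genes the shares were 68.5% and 67.2% in A2780 and 61.9% and 65.1% in Acis. There is 1 list a group, so no test was made. A listed peak had to overlap between all replicates, of which control had 3 and cisplatin 2, so a difference between a control and a cisplatin list cannot be told apart from the number of replicates behind it. H1-1, H1-6, H2BC3, H3C3, H3C6, H3C11 and H3C12 had no peak in any list. Of these, H3C6 was lower in Acis control than in A2780 control, H2BC3 and H3C12 had 72 against 3 and 98 against 5 counts in A2780 control and Acis control, and H3C3 had 18 against 1 (ratio 16.3, 95% exact interval 2.57 to 679), while H3C11 had a log2 difference of -0.01 between the lines. The window of H3C6 was chr6:26224885-26225184, from the canonical transcript, while its RefSeq promoter window is chr6:26223928-26224227. Peaks in the RefSeq window were not looked for. H2BC9 had a peak in the A2780 control and A2780 cisplatin lists, with fold enrichments of 5.60 and 6.34, and in neither Acis list. H2AC15 and H2BC15 shared a peak with fold enrichments of 16.1 before and 12.8 after cisplatin in A2780, and of 17.2 and 18.0 in Acis. H1-3, whose transcripts fell most among the abundant H1 genes, kept a peak with fold enrichments of 8.54 and 7.64 in A2780 and of 12.2 and 9.88 in Acis.

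**Figure D5:**
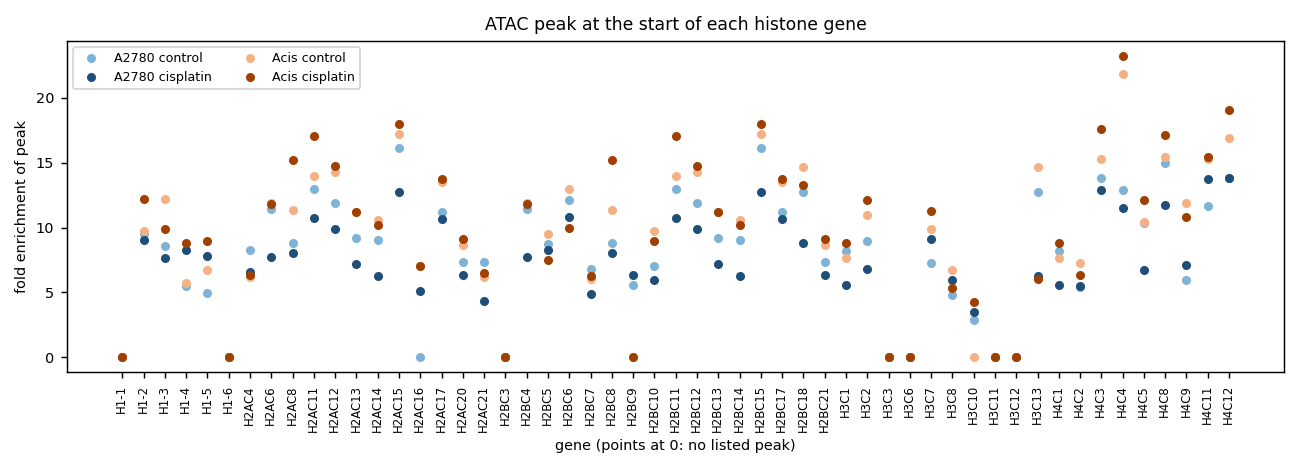
Fold enrichment over the local background (y axis) of the ATAC peak at the start of each of the 53 genes (x axis) in the 4 lists, with points at 0 where no peak is listed. Peaks are present in all 4 lists for most genes, and H2BC9 has points above 0 in A2780 only.

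Genes that act on histone transcripts were read from lists of their own, as counts past an edgeR adjusted p under 0.05, where 21.2% of all genes were higher and 28.2% lower in A2780, and 9.35% higher and 12.4% lower in Acis. Of 7 genes for histone gene transcription, 2 were higher and 3 lower in A2780, and 1 higher and 1 lower in Acis. NPAT, the S-phase coactivator of histone genes, fell by 0.63 ± 0.054 in A2780 (edgeR adjusted p = 2.62e-10) and was at -0.01 ± 0.049 in Acis (edgeR adjusted p = 0.967). POU2F1 fell by 0.79 and 0.46. HINFP, named after its values were seen, went from a normalized count of 186.9 in A2780 control to 243.2 in A2780 cisplatin. Of 11 genes for 3′ end formation, 3 were higher and 2 lower in A2780 and 0 higher and 1 lower in Acis. CPSF2, a subunit of the cleavage complex, fell by 0.34 in A2780. NCBP2, also named after its values were seen, went from 671.4 in A2780 control to 760.5 in A2780 cisplatin. SLBP, named here after its values were seen, had log2 fold changes of 0.07 in A2780 and 0.04 in Acis (edgeR adjusted p = 0.307 and 0.63). Of 9 genes for translation and decay of histone mRNA, 5 were lower in A2780 and 3 in Acis. The exonuclease XRN1 fell by 0.73 and 0.23, the uridylyltransferase TUT4 by 0.44 and 0.17, and the translation factor CTIF by 0.35 and 0.41.

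Of 25 genes of DNA replication and S phase, 7 were higher and 4 lower in A2780 and 3 higher and 2 lower in Acis, and with so few genes no share in these lists is read as differing from that of all genes. CDT1, a licensing factor, and TK1, thymidine kinase, rose in A2780 by 0.30 and 0.28 on the log2 scale, and POLA1, a subunit of DNA polymerase alpha, fell in both lines by 0.25 and 0.16. Of 12 histone variants listed as replication-independent, 7 were higher and 3 lower in A2780 and 3 higher and 3 lower in Acis. H2AX is among the 12, though the wider stem-loop pattern above matched it. H2AJ rose by 1.31 ± 0.082 in A2780 (edgeR adjusted p = 6.95e-13) and by 0.41 ± 0.089 in Acis (edgeR adjusted p = 0.00112). H3-3B, a gene for the variant H3.3, rose by 0.33 and 0.18, and MACROH2A1 fell by 0.44 and 0.30. Of 15 histone chaperones, 2 were higher and 4 lower in A2780 and 1 higher and 3 lower in Acis. ATRX fell by 0.77 and 0.31 and NASP by 0.15 and 0.13. DAXX, named after its values were seen, went from a normalized count of 451.1 in A2780 control to 532.2 in A2780 cisplatin.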

How the data were processed

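RNA-seq of 12 libraries and 4 lists of ATAC-seq peaks were used. XR-seq samples were not analysed here. Per the methods of the authors, RNA was depleted of ribosomal RNA, stranded single-end reads were aligned with STAR 2.7.3, PCR duplicates were removed with Picard, and reads were counted with HTSeq 0.11.1, without normalization. The authors deposited these raw counts, with at least 10 over the 12 libraries for each gene. For the peaks, the authors deposited MACS2 fold enrichment over the local background, -log10 p and -log10 q values and a peak score, which was not used, after Cutadapt and Bowtie2 2.4.1. How reads that map to several places were treated is not given in the sources used here for the RNA-seq. The build is hg38 per the labels. Gene positions came from GENCODE 44 on GRCh38, which holds all 53 genes under the same names, and promoters from RefSeq.

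Counts were fitted in R with edgeR, with TMM factors of 0.965 to 1.05, its filter on low counts, 4 groups and 8 residual degrees of freedom. The quasi-likelihood test was adjusted by Benjamini-Hochberg over 15760 genes. Calls used an adjusted p under 0.05 and, where stated, a change of 2-fold or more (log2 of 1). DESeq2 was an alternative, and the fit was tested on simulated data. Those simulated counts spread more than counting noise and had no ceiling. The simulation therefore does not cover the histone genes, whose replicates mostly differed by less than counting noise. Total counts of 4130644 to 5072216 per library set the counting error. Genes named are the H1 genes, the 3 most abundant of each core family, those past both thresholds or past the interaction test, the 3 largest line differences and at most 4 of each context list. Genes of the pairs, of the peaks and of other counts of 5 or fewer were named after their values were seen. The members and lists were chosen with earlier results of these data known. The wells of a group carry replicate numbers that do not pair the samples, with correlations of -0.068 to 0.113 between libraries of one number.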

Additional observations from a re-analysis of the deposited data

Results flagged for a closer look

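For 11 histone genes the cisplatin effect differed between the lines by the interaction term of edgeR's quasi-likelihood test with Benjamini-Hochberg adjustment. The difference, Acis minus A2780 on the log2 scale, was -0.77 for H2BC21 (adjusted p = 1.45e-06), -0.75 for H2BC9 (adjusted p = 5.87e-05) and -0.56 for H2AC11 (adjusted p = 5.67e-05). It was -0.46 for H3C8, -0.44 for H2BC18, -0.41 for H3C11, -0.40 for H2BC8, -0.39 for H4C8, -0.36 for H2BC15, -0.32 for H2AC6 and -0.32 for H2BC6, with adjusted p from 0.00573 to 0.0499. In H2BC21 the change had opposite signs in the lines, at 0.24 in A2780 and -0.52 in Acis. DESeq2 gave an adjusted p under 0.05 for H2BC21, H2BC9 and H2AC11 and 0.0566 to 0.189 for the other 8. The call of H3C8 was lost without Acis cisplatin replicate 3 (adjusted p = 0.0667). That of H2AC6 was lost without A2780 control replicate 1 or 3, A2780 cisplatin replicate 1, Acis control replicate 3 or Acis cisplatin replicate 2 (adjusted p = 0.0529 to 0.0731). That of H2BC6 was lost without any library except A2780 control replicate 1, A2780 cisplatin replicate 2 and Acis cisplatin replicate 2 (0.0593 to 0.148). That of H3C11 was lost without any library except A2780 cisplatin replicate 2, Acis control replicate 3 and Acis cisplatin replicate 1 (0.0654 to 0.203). The median difference of other protein-coding genes with transcripts of at most 1000 bases was the same as that of the histone genes, -0.18.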

How the results depend on the processing

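The numbers of lower genes in both cisplatin comparisons stayed within 1.5 times of 33 and 40 under all alternatives run. With total counts as library size, the median of all genes was 0.10 in A2780 (-0.01 with TMM) and 0.07 in Acis (0.01 with TMM), the median of the histone genes was -0.24 and -0.47, and relative to all genes it stayed at -0.35 and -0.54. Then 3 genes were higher in A2780, H2BC15 turned to 0.0117 there, and the sums after cisplatin were 71.9% (H1), 84% (H2A), 90.3% (H2B), 77.7% (H3), 90.4% (H4) and 83.7% (all) of control in A2780 and 67.8% (H1), 70.8% (H2B) and 70.2% (all) in Acis. Correction for start positions with exon length gave 2 higher in A2780 and a median of -0.61 in Acis. With canonical length, added after the data were seen, it gave 9 genes past both thresholds in A2780 and a median of -0.64 in Acis. The shares of all genes in these corrected fits are not given here. For the untreated lines, DESeq2 gave 5 higher and merged replicates 7, and a mean of at least 50 counts 3 lower and 1 past both thresholds, since fewer genes were tested. After cisplatin, 2 genes were higher in Acis under DESeq2, RLE, total counts, at least 50 counts, merged replicates or 2 groups alone. The interaction had 3 calls under DESeq2 and 6 with merged replicates. The shares of all genes under these other alternatives are not given here either.

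Leaving out 1 library gave 7 to 11 higher genes in the untreated lines, with 7 without A2780 control replicate 1 or any Acis control replicate, and a median of 0.0767 to 0.108, lowest without A2780 control replicate 3. It gave 2 to 5 higher genes after cisplatin, fewer than 5 without any library but A2780 cisplatin replicate 2 and Acis cisplatin replicate 3. H2BC3 in Acis, with 0 to 2 counts a library, turned to -0.13 and -0.15 without Acis cisplatin replicate 1 or 3 (range -0.145 to 0.769). With the replicate block 33 and 40 genes were lower and 11 were past the interaction test, as without it. The cause of these shifts was not tested. H1-1, H2AC17 and H3C3 had too few counts for the test, and for H4C11 and H4C12 no cisplatin effect was detectable at this depth.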
